A study of Canis lupus familiaris with 6 samples.

Results

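The genes described here are 34 cell cycle genes named as a set: the subunits of the replicative helicase and its loader and clamp, the enzymes that supply nucleotides, cyclins and their kinase, mitotic kinases and checkpoint genes, spindle genes, and the proliferation markers MKI67 and TOP2A with the chromatin protein HMGB2. The rule was this list of names, and it used no measured value. Of the 34 genes, 33 were found by symbol among the 34981 genes of the files; MCM7 was not and is not analysed here. The 33 were followed in single-cell libraries of dog neuroretina, in each of the retinal classes that could be gated from marker genes.

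All dogs had normal (wild-type) retinas and received immunosuppression, and all retinas received a subretinal graft of mechanically fragmented retinal organoids made from the human embryonic stem cell line WA09 carrying a CRX-tdTomato reporter. On day 3, 5 mm punches of neuroretina were cut over the graft and, as the control, in an area without graft, and were dissociated with trypsin and a neural tissue kit and sequenced with 10x 3′ chemistry. There were 3 experiments, LG5, RC726 and RC724, with 1 library of each kind in each, 6 libraries in all. The control is therefore retina from a grafted, immunosuppressed eye and not from an untreated one. The sources used here do not say whether the 3 experiments used separate dogs, and p-values measure the spread between these 3 pairs.

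A cell that prepares to divide loads the MCM helicase onto replication origins with CDC6, starts forks with CDC45, holds polymerases on DNA with the clamp PCNA, and makes nucleotides with TYMS, TK1 and the ribonucleotide reductase subunits RRM1 and RRM2. CDK1 with cyclins A and B then drives mitosis, together with the PLK1 and Aurora kinases, the BUB1 checkpoint, and CDC20 and UBE2C, which act in anaphase. Rods, cones and the other neurons of the mature retina no longer divide, Müller glia of mammals rarely do so, and microglia, the resident macrophages, and endothelial cells can. Several of the genes have other uses: PCNA, RRM1 and the PCNA-binding protein PCLAF also serve DNA repair, and HMGB2 is a general chromatin protein.

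The 6 libraries kept 8051 to 22446 barcodes each, with medians of 1195 to 2775 UMIs (unique molecular identifiers, counted molecules). Levels are CPM, the UMIs of a gene per 1000000 UMIs of the class in a library. Between 14 and 85 barcode sequences were shared by any pair of libraries, at most 0.664% of the smaller one. In the microglia or macrophage class, complement genes and TYROBP were detected in most barcodes, whereas TREM2 was found in at most 5% and CSF1R, CD163, MRC1 and P2RY12 in none of the 10 barcodes of the RC724 control library. For that library 3 UMIs, the limit that a count of 0 allows, correspond to 107 CPM in this class, so a listed 0 there excludes little. The class with the fewest barcodes among the others tested, endothelial cells, had 11 to 46 barcodes per library.

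**Figure D1:**
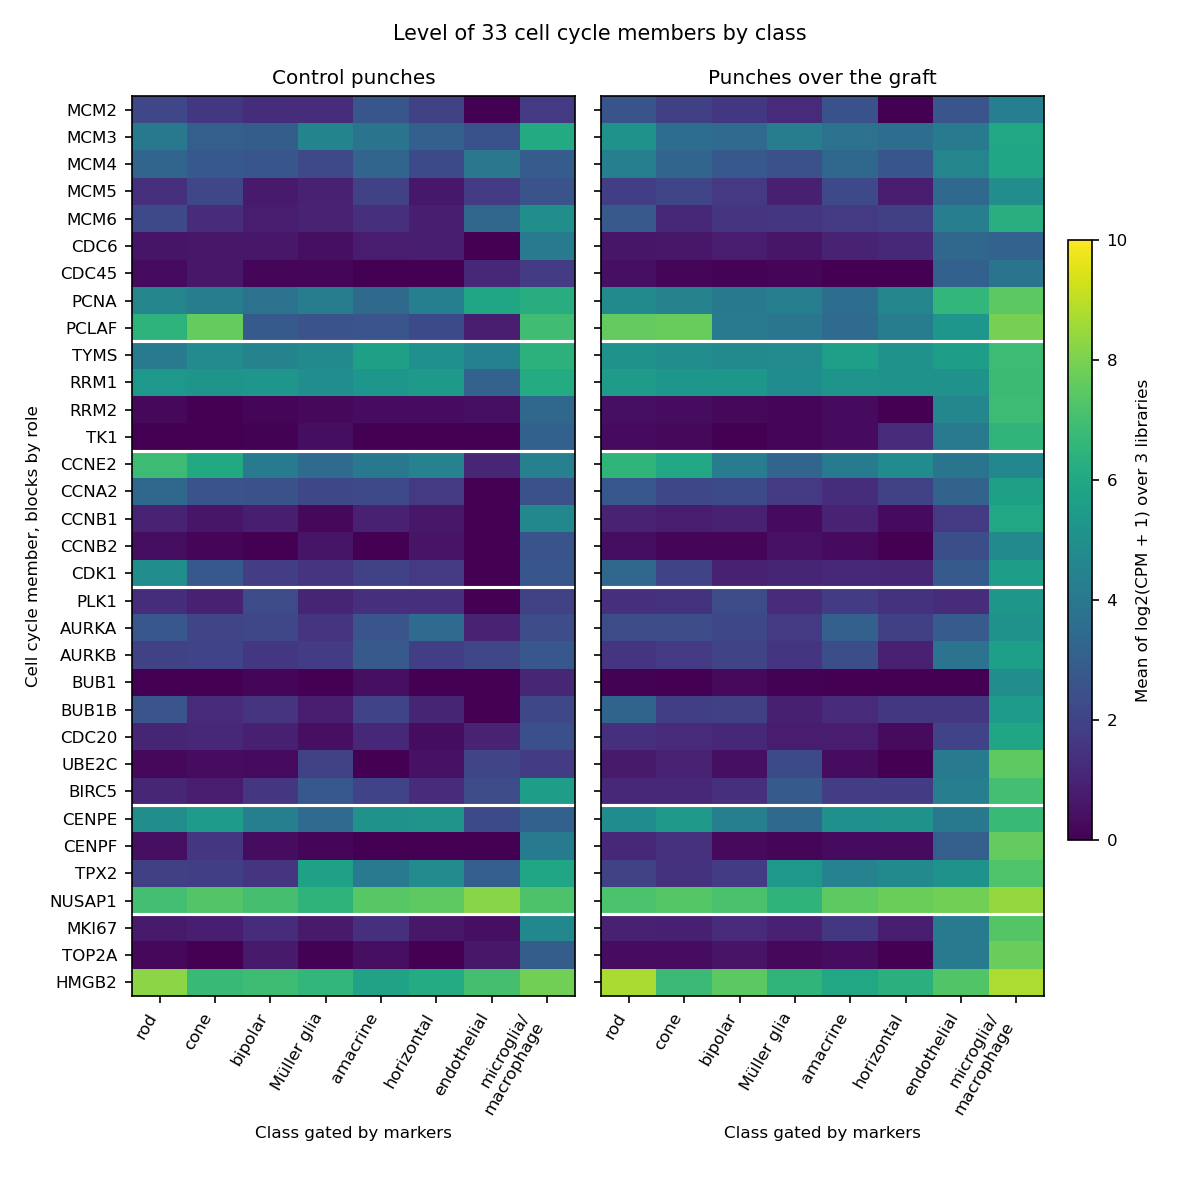
Mean of log2(CPM + 1) over 3 libraries for each of the 33 genes (rows, blocks by role) in 8 classes (columns), in control punches (left) and punches over the graft (right). HMGB2, NUSAP1 and RRM1 have signal in every class, while MKI67, TOP2A, RRM2 and TK1 are near 0 in the neurons and in Müller glia of both groups and have their highest values in microglia or macrophages over the graft.

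The control punches showed which of the genes a class without division carried. In rods, HMGB2 was at 479 CPM in LG5, 241 CPM in RC726, then 249 CPM in RC724, and PCLAF at 114, 88.3 and 67.4 CPM in the same order. NUSAP1, a spindle-associated microtubule protein, was at 213, 106 and 92.1 CPM, and CCNE2, the E-type cyclin of the G1 to S transition, at 141, 99.8 and 109 CPM. MKI67 stood at 0, 0.911 and 1.44 CPM in the same rods and TOP2A, the topoisomerase that untangles chromosomes, at 0, 0.0701 and 0.411 CPM. Thus HMGB2, PCLAF, NUSAP1 and CCNE2 are counted in large numbers in control rods whereas MKI67 and TOP2A are close to 0.

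Cones resembled rods in this respect, with PCLAF at 241, 171 and 192 CPM in the control punches, and MKI67 between 0 and 1.6 CPM. In barcodes of bipolar cells and Müller glia of the same punches PCLAF was lower, at 22, 2.88 and 2.91 CPM and at 20.2, 2.67 and 1.67 CPM. Müller glia carried TPX2, which recruits Aurora A kinase to the spindle, at 59, 45.2 and 53.2 CPM, against 10.5, 1.26 and 1.03 CPM in rods. The LG5 library was the highest of the 3 for PCLAF, NUSAP1 and HMGB2 in control rods, and the lowest for MKI67 in rods, cones, bipolar cells and Müller glia. Its files were written by Cell Ranger 6.0.2 and those of the other experiments by versions 7.0.0 and 7.1.0; the part of this in the levels was not tested.

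Because of these levels, a barcode with 2 or more UMIs of the 33 genes was common in cells that do not divide. In control rods 38%, 38.9% and 34.7% of barcodes reached that count, at median depths of 895, 1586 and 1606 UMIs, and HMGB2 alone gave 40.3%, 33.3% and 34.9% of their UMIs for the set. In control Müller glia 42.1%, 58.3% and 86.5% reached it, at median depths of 3009, 6297 and 21041 UMIs. Thinning to 1000 UMIs left out the barcodes below that depth: 3781, 922 and 935 control rods and 58, 19 and 6 control Müller glia. In the thinned barcodes the share was 32.8%, 16.2% and 15.6% in control rods and 8.83%, 5.62% and 4.91% in control Müller glia. Among barcodes deep enough to be thinned, the order of the classes therefore turned round, and rods had the larger share.

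A smaller group of 10 genes stayed under 3 CPM in rods, cones, bipolar cells and Müller glia of every control library: CDC6, CDC45, RRM2, TK1, CCNB1, CCNB2, BUB1, CDC20, CENPF and TOP2A. This scarce group was chosen after its control values were seen and serves as a description. In rods, 0 to 2 barcodes per control library of 4948 to 6770 held 2 or more UMIs of the scarce group. A count of 0 allows up to 0.0443% in LG5 and 0.0606% in RC724. Because low control levels in rods, cones, bipolar cells and Müller glia chose the group, the low control shares of these classes follow from that choice.

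In rods over the graft, PCLAF, TYMS, MCM3, MCM4 and HMGB2 rose and CDK1 fell. Of the 33 genes 24 were tested in rods and 6 were called at an adjusted p under 0.05, 5 higher and 1 lower. In rods 17.8% of the 15531 genes tested were called, 9.1% higher and 8.69% lower. The median log2 change was 0.19 over the 24 genes and 0.01 over all genes tested. The 6 calls in 24 stand against a background in which many rod genes changed, and the share called lower was not above it.

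Among the replication genes, PCLAF in rods was 313 CPM over the graft and 114 CPM in the control of LG5, 156 and 88.3 CPM in RC726, then 142 and 67.4 CPM in RC724. Every punch over the graft lay above every control. The log2 change was 1.08 with a standard error of 0.13 (edgeR quasi-likelihood test, adjusted p = 0.00086). MCM3, a subunit of the helicase, was 32.4 and 10.5 CPM in LG5, 31.2 and 18.4 CPM in RC726, then 36.5 and 19.4 CPM in RC724, and again the groups did not overlap. Its log2 change was 1.04 ± 0.16 (SE; edgeR, adjusted p = 0.0028). MCM4, another subunit of the helicase, was 23.5 and 6.56 CPM, 13.7 and 8.2 CPM, and 21.6 and 11.4 CPM in the same order, a log2 change of 1.11 ± 0.20 (SE; edgeR, adjusted p = 0.0062). In rods 4.37% of tested genes had every punch over the graft above every control.

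The other helicase subunits and the clamp did not pass the test in rods. MCM2 was 7.1 and 5.79 CPM in LG5, 3.49 and 2.38 CPM in RC726, then 4.93 and 2.57 CPM in RC724 (over graft, then control; edgeR, adjusted p = 0.17). MCM5 and MCM6 had log2 changes of 0.75 and 0.64 at adjusted p values of 0.12 and 0.11 (edgeR). PCNA was 40 and 34.6 CPM, 20.1 and 19 CPM, and 22.1 and 16.9 CPM, and its log2 change of 0.18 ± 0.13 (SE) did not pass the test (edgeR, adjusted p = 0.36). All 5 MCM genes measured were higher over the graft in rods of each experiment, with MCM2, MCM5 and MCM6 at 14 to 112 UMIs per library. The share of all rod genes that did so is not given here, so this is a description.

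TYMS, the enzyme that makes thymidylate, was 48.6 and 21 CPM in rods of LG5, 21.6 and 13.5 CPM in RC726, then 35.5 and 15.9 CPM in RC724. The groups did not overlap and the log2 change was 0.98 ± 0.14 (SE; edgeR, adjusted p = 0.0021). RRM1 was 63.2 and 55.5 CPM, 33.4 and 29.2 CPM, and 44.1 and 36 CPM, a change that did not pass the test (edgeR, adjusted p = 0.28). RRM2, the subunit that limits ribonucleotide reductase outside S phase, gave 5, 1 and 8 UMIs in rods over the graft and 0, 0 and 6 in the controls, and TK1 gave 4, 0 and 5 against 0, 1 and 0. Both were too few to be tested.

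CDK1 changed the other way in rods. It was 9.38 CPM over the graft and 31.7 CPM in the control of LG5, 14.4 and 33.2 CPM in RC726, then 6.07 and 22.9 CPM in RC724. Every punch over the graft lay below every control, which 3.73% of genes tested in rods did. CDK1 fell by 1.63 ± 0.17 (SE) on the log2 scale (edgeR, adjusted p = 0.0005). Of the cyclins, CCNA2 and CCNE2 had log2 changes of -0.73 and -0.35 with every experiment in that direction, at adjusted p values of 0.055 and 0.14 (edgeR). CCNB1 was between 0.109 and 1.64 CPM in all 6 libraries, and CCNB2 gave 2 to 4 UMIs in each.

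HMGB2 in rods was 724 and 479 CPM in LG5, 308 and 241 CPM in RC726, then 333 and 249 CPM in RC724. The groups overlapped, since the LG5 control was above the graft punches of the other experiments, while each pair moved in 1 direction. Its log2 change of 0.42 ± 0.12 (SE) passed the test (edgeR, adjusted p = 0.041) and did not without the RC726 or the RC724 pair (edgeR, adjusted p = 0.15 and 0.21). MKI67 in rods was 0.273 and 0 CPM, 1.18 and 0.911 CPM, and 1.5 and 1.44 CPM, with 3 to 21 UMIs over the graft and 0 to 14 in the controls (edgeR, adjusted p = 0.61). TOP2A gave 9, 2 and 0 UMIs over the graft against 0, 1 and 4 in the controls. Apart from CDK1, no kinase, checkpoint or spindle gene of the set was called in rods; BUB1B, a checkpoint kinase, came nearest with a log2 change of 0.68 (edgeR, adjusted p = 0.052).

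**Figure D2:**
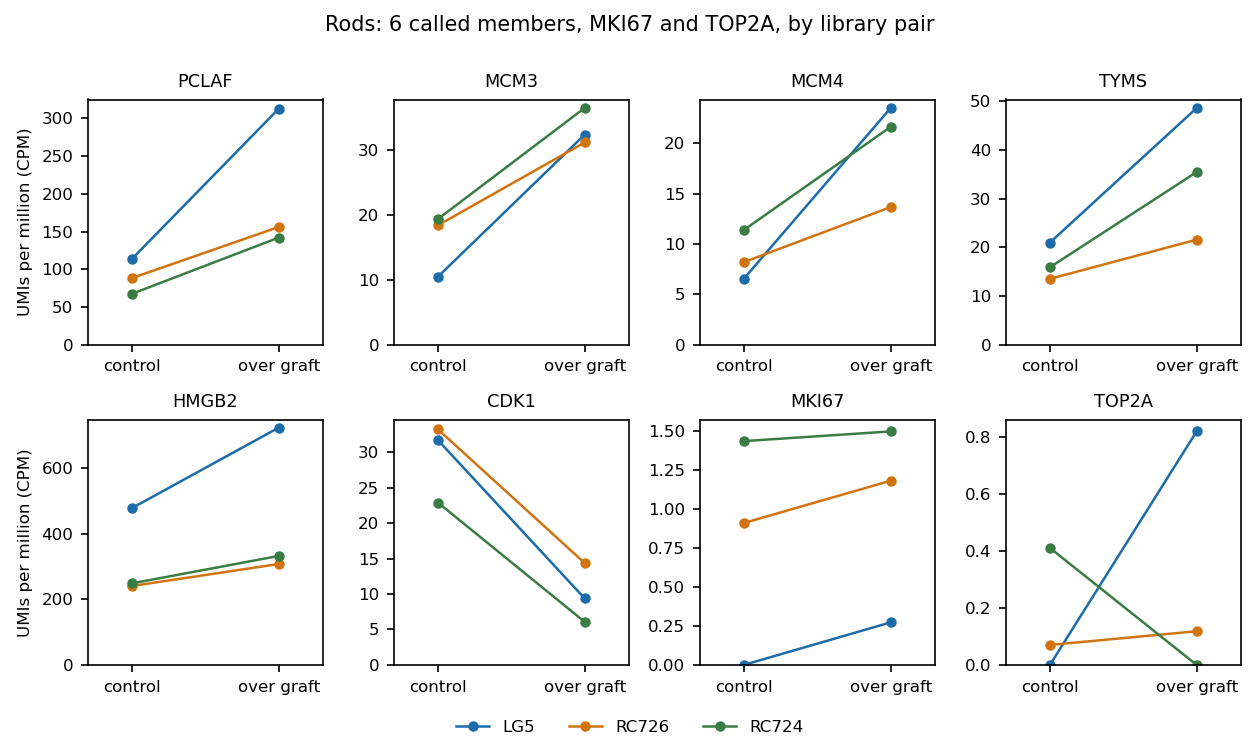
CPM in rods (y axis, linear from 0) in the control punch and the punch over the graft (x axis) of each experiment, joined by a line, for the 6 called genes and for MKI67 and TOP2A. PCLAF, MCM3, MCM4, TYMS and HMGB2 go up and CDK1 goes down in all 3 experiments, and all MKI67 and TOP2A points lie at or below 1.5 CPM.

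Rods over the graft also differed in their own markers. The 12 rod markers made up 1.47% of rod UMIs over the graft and 3.07% in the control of LG5, 1.9% and 2.44% in RC726, then 1.25% and 2.34% in RC724. Median depth per rod was 913 and 895 UMIs, 1768 and 1586 UMIs, and 1904 and 1606 UMIs in the same order. The part of these in the rod changes was not tested. The share of rods with 2 or more UMIs of the 33 genes was 51.9% and 38% in LG5, 48.5% and 38.9% in RC726, then 48.2% and 34.7% in RC724, a mean log2 ratio of 0.42 ± 0.08 (SD over 3 experiments). Thinned to 1000 UMIs, which left out 829 to 4614 rods per library, it was 47.2% and 32.8%, 19.8% and 16.2%, and 20.7% and 15.6%, with a mean log2 ratio of 0.41 ± 0.12 (SD). Summed over the 33 genes, the level in rods was 1680 and 1189 CPM, 882 and 724 CPM, and 915 and 712 CPM. The scarce group in rods was 5.83 and 1.64 CPM, 5.73 and 4.62 CPM, and 6.57 and 5.54 CPM, at most 97 UMIs in a library.

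Genes that act beside the 33 were read from 6 further lists. Of 35 tested replication factors 2 rose and 2 fell in rods, where 17.8% of all genes were called. CCNE1, the other E-type cyclin, was 9.29 and 1.31 CPM, 6.33 and 3.08 CPM, and 10.1 and 2.05 CPM (log2 change 1.90; edgeR, adjusted p = 0.0046). ORC1, a subunit of the origin recognition complex, fell by 1.42 on the log2 scale, from 26.2, 16.9 and 27.1 CPM in the controls to 9.56, 9.46 and 7.21 CPM (edgeR, adjusted p = 0.0021), and PRIM1, the primase, fell by 0.48 (edgeR, adjusted p = 0.029). The median log2 change of this list in rods was 0.09.

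Of 33 tested mitosis factors outside the set, 6 rose and 3 fell in rods (17.8% of all genes called, 9.1% higher and 8.69% lower), with a median log2 change of 0.11. SMC4, a condensin subunit, was 420 and 213 CPM in LG5, 551 and 282 CPM in RC726, then 857 and 333 CPM in RC724, a log2 change of 1.07 (edgeR, adjusted p = 0.0015). It also rose in cones by 1.08 on the log2 scale (edgeR, adjusted p = 0.012), where it was 347 and 175 CPM, 366 and 204 CPM, and 609 and 209 CPM. Rod RNA, estimated from the share of rod markers in cone barcodes, would give 132 and 69.4 CPM, 43.6 and 19.5 CPM, and 58.1 and 15.8 CPM of SMC4 there. STMN1, which destabilises microtubules, and the histone variant gene H2AZ1 rose by 0.77 and 0.71 on the log2 scale (edgeR, adjusted p = 0.0041 and 0.0092), and HMMR, a spindle and hyaluronan receptor gene, fell by 0.72 (edgeR, adjusted p = 0.0056). H2AZ1 and HMGB2 belong to families of similar genes. Whether reads of related genes entered their counts was not tested, so the counts are uncertain.

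Inhibitors of the cycle changed in rods in both directions, with 5 of 16 tested higher and 2 lower (9.1% and 8.69% of all genes) and a median log2 change of 0.08. CDKN2D, an inhibitor of CDK4 and CDK6, was 60.8 and 22.8 CPM, 19.5 and 9.81 CPM, and 29.2 and 12 CPM, a log2 change of 1.2 (edgeR, adjusted p = 0.00059). CDKN1C, the inhibitor p57, rose by 1.01 on the log2 scale in rods (edgeR, adjusted p = 0.00086). In bipolar cells CDKN1C and SMC4 were also called (edgeR, adjusted p = 0.0041 and 0.039). CDKN1C was 71.2 and 15 CPM, 7.29 and 2.67 CPM, and 4.44 and 1.38 CPM there (over graft, then control). Rod RNA would give 69.5 and 19.1 CPM, 8.41 and 3.49 CPM, and 7.98 and 3.06 CPM of CDKN1C. SMC4 was 97.4 and 42.5 CPM, 29.1 and 23.9 CPM, and 45 and 20.1 CPM. Rod RNA would give 99.8 and 35.7 CPM, 29.9 and 12.3 CPM, and 50 and 13.2 CPM of SMC4. The measured SMC4 thus lay above this estimate in each control. The part of rod RNA in these calls was not tested. BTG2, an antiproliferative gene, rose by 0.82 on the log2 scale in rods (edgeR, adjusted p = 0.0025). GADD45A, a stress gene, fell by 1.05 in rods and by 1.25 in cones on the log2 scale (edgeR, adjusted p = 0.0011 and 0.0084).

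In the remaining lists the calls in rods were no more frequent than the 17.8% of all genes. Of 14 E2F, DREAM and MuvB regulators, which switch cell cycle genes on and off, TFDP2 alone was called and fell by 0.49 on the log2 scale (edgeR, adjusted p = 0.013). Of 13 G1 cyclins and kinases, CDK4 rose by 0.45 and CDK7 fell by 0.78 on the log2 scale (edgeR, adjusted p = 0.043 and 0.0024). Of 22 progenitor genes 3 rose, among them HES6 by 0.85 and RAX by 0.70 on the log2 scale (edgeR, adjusted p = 0.0028 and 0.021). In cones ATOH7, a transcription factor of early retinal neurogenesis, was 55.4 and 13.3 CPM, 176 and 47.3 CPM, and 547 and 49.6 CPM, a log2 change of 2.51 (edgeR, adjusted p = 0.003).

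In the barcodes of Müller glia, PCLAF was the only gene of the set that was called, and its level lay close to what rod RNA in these barcodes would give. Of the 33 genes 23 were tested there, and 1.07% of the 16048 genes tested were called. PCLAF was 45.2 CPM over the graft and 20.2 CPM in the control of LG5, 10.1 and 2.67 CPM in RC726, then 5.96 and 1.67 CPM in RC724. The groups overlapped across experiments, but each pair rose, with a log2 change of 1.5 ± 0.18 (SE; edgeR, adjusted p = 0.019). The median log2 change was -0.07 over the 23 genes tested and -0.01 over all genes tested in Müller glia.

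The proliferation markers stayed near 0 in Müller glia. MKI67 was 0.144 and 0 CPM, 1.56 and 0.719 CPM, and 1.21 and 1.67 CPM (edgeR, adjusted p = 0.95), and TOP2A gave 1, 5 and 0 UMIs over the graft against 0, 1 and 0 in the controls. RRM2 was listed at 0 in both libraries of LG5 and RC726 and gave 8 and 11 UMIs in RC724. The scarce group reached 2 UMIs in 0, 2 and 8 barcodes over the graft, of 2434, 1394 and 1199, and in 0, 1 and 2 barcodes of the controls. In RC726 1 of the 2 barcodes over the graft carried TOP2A. In RC724, where those 8 barcodes lay, the largest count in a barcode was 3 UMIs, none of the 8 had a UMI of MKI67 or TOP2A, and their median depth was 24698.5 UMIs. The 0 of 2434 Müller glia in LG5 over the graft allows a share of up to 0.123%.

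Other genes of the set in Müller glia did not pass the test. PCNA was 25.6 and 23.3 CPM, 14.1 and 16.5 CPM, and 17.2 and 15.2 CPM (edgeR, adjusted p = 0.95), and MCM2 was 1.44 and 1.93 CPM, 1.31 and 1.13 CPM, and 1.29 and 1.33 CPM (edgeR, adjusted p = 0.90). TYMS was 33.1 and 29.3 CPM, 21.1 and 22.8 CPM, and 28.1 and 25.3 CPM (edgeR, adjusted p = 0.99). HMGB2 was 149 and 134 CPM, 71.4 and 69.9 CPM, and 75.6 and 97.1 CPM (edgeR, adjusted p = 0.76). CDK1 was 2.3 and 4.56 CPM, 0.751 and 1.54 CPM, and 0.546 and 0.785 CPM, lower over the graft in each pair with a log2 change of -0.91 (edgeR, adjusted p = 0.27). TPX2 was 38.3 and 59 CPM, 39.5 and 45.2 CPM, and 41.7 and 53.2 CPM, with every graft punch under every control, as in 1.16% of the genes tested there, and a log2 change of -0.45 (edgeR, adjusted p = 0.15).

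Of the other lists in Müller glia, 1 gene was called. NES, which codes for the intermediate filament nestin of neural progenitors and reactive glia, was 31.4 and 13.2 CPM, 21.8 and 7.39 CPM, and 41.9 and 13.9 CPM, a log2 change of 1.40 ± 0.13 (SE; edgeR, adjusted p = 0.016). None of 33 replication factors, 32 mitosis factors, 16 regulators, 15 G1 genes or 16 inhibitors tested in Müller glia was called by edgeR, with 0, 3, 2, 1 and 2 of them at an unadjusted p under 0.05.

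The change over the graft was then compared between Müller glia and rods in 1 fit with both classes, in which 9.05% of 17888 genes were called. MCM3 changed less in Müller glia than in rods by a log2 difference of -1.42 ± 0.15 (SE; edgeR interaction, adjusted p = 1.7e-05), TYMS by -0.96 ± 0.14 (SE; adjusted p = 0.00034), MCM4 by -0.83 ± 0.24 (SE; adjusted p = 0.039) and HMGB2 by -0.53 ± 0.14 (SE; adjusted p = 0.027). MCM3 in Müller glia was 12.7 and 10.7 CPM, 30.2 and 40.3 CPM, and 14.6 and 23.4 CPM, so that in RC726 and RC724 it lay lower over the graft while it lay higher in rods. PCLAF did not pass this test, with a log2 difference of 0.34 ± 0.20 (SE; edgeR interaction, adjusted p = 0.34), and neither did CDK1, with 0.79 ± 0.34 (SE; adjusted p = 0.18).

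The rod RNA in other classes was estimated per library as the rod marker share of the class divided by that of rods. For Müller glia this was 13.8% over the graft and 15.8% in the control of LG5, 4.86% and 3.49% in RC726, then 4.63% and 2.77% in RC724. Multiplied by the level of PCLAF in rods, it gave 43.2 and 17.9 CPM, 7.59 and 3.08 CPM, and 6.57 and 1.87 CPM, beside the measured 45.2 and 20.2 CPM, 10.1 and 2.67 CPM, and 5.96 and 1.67 CPM. The measured levels lay near these in all 6 libraries, so PCLAF RNA from rods and from Müller glia cannot be told apart here.

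In barcodes of bipolar cells PCLAF was 74.3 and 22 CPM, 7.5 and 2.88 CPM, and 6.45 and 2.91 CPM, a log2 change of 1.42 ± 0.22 (SE; edgeR, adjusted p = 0.01). Rod RNA would give 74.3 and 19.1 CPM, 8.47 and 3.84 CPM, and 8.28 and 2.67 CPM by the same estimate, so RNA from rods and from bipolar cells cannot be told apart here either. It was the only call among 16 genes of the set tested in bipolar cells, where 0.601% of 13634 genes were called. Without the LG5 pair, or with at most 10% mitochondrial UMIs, the call was lost (edgeR, adjusted p = 0.33 and 0.12). In cones, PCLAF was 371 and 241 CPM, 190 and 171 CPM, and 121 and 192 CPM, so that RC724 went against the other experiments (edgeR, adjusted p = 1). HMGB2 in bipolar cells was 477 and 233 CPM, 104 and 86.8 CPM, and 108 and 81.9 CPM, a log2 change of 0.52 (edgeR, adjusted p = 0.12).

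Cones, amacrine cells and horizontal cells had no call in the set, with 14, 9 and 8 genes tested. In these classes 2.5%, 0.722% and 0.295% of all genes tested were called. At an unadjusted p under 0.05 edgeR gave 1 gene of the set in cones, 0 in amacrine cells and 0 in horizontal cells, against 14.9%, 7.57% and 5.46% of all genes tested, and DESeq2 called 0 in each. MKI67 was between 0 and 3.68 CPM in amacrine cells, between 0 and 2.76 CPM in horizontal cells and between 0 and 1.6 CPM in cones, over all 6 libraries. TOP2A had no UMI in horizontal cells, 2 UMIs in cones of LG5 over the graft with 0 in the other libraries, and at most 1 UMI per library in amacrine cells. PLK2, a stress-induced kinase listed with the inhibitors, was 21.4 and 14.2 CPM, 27.6 and 2.66 CPM, and 25.2 and 9.21 CPM in amacrine cells, a log2 change of 1.48 (edgeR, adjusted p = 0.039).

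Each of the 33 genes had a UMI in microglia or macrophages, as it did in rods, bipolar cells and Müller glia. In microglia or macrophages 25 of the 33 genes were higher over the graft in all 3 experiments, among them MKI67, TOP2A, UBE2C, RRM2 and TK1. None was lower in all 3. Of all 18085 genes with a UMI in the class, 12.8% were higher in all 3 experiments. In 18 of the 33 genes every punch over the graft lay above every control, as did 5.65% of those 18085 genes. Those 18085 genes include genes with few UMIs, which can hardly be higher in every experiment, so these shares are not a like-for-like yardstick. No gene passed the adjusted threshold in this class (0% of 3683 tested genes); of the 18 genes of the set that were tested, edgeR gave 8 at an unadjusted p under 0.05, all higher (5.95% of all genes tested), and DESeq2 called 1. In the RC724 control 5 of these 8 genes had 0 UMIs. Genes near 0 in the controls passed the filter on low counts through the graft libraries, so the count and direction support nothing. The class held 683 and 223 barcodes in LG5 (over graft, then control), 35 and 20 in RC726, then 21 and 10 in RC724.

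MKI67 in this class was 98.3 and 35.2 CPM in LG5, 135 and 11.4 CPM in RC726, then 312 and 35.8 CPM in RC724, and the RC726 and RC724 controls rested on 2 and 1 UMIs. The groups did not overlap, and the log2 change was 2.13 ± 0.56 (SE; edgeR, unadjusted p = 0.0044, adjusted p = 0.78). TOP2A was 104 and 37.3 CPM, 117 and 11.4 CPM, and 777 and 0 CPM, a log2 change of 2.60 ± 0.75 (SE; edgeR, unadjusted p = 0.0078). UBE2C, the ubiquitin-conjugating enzyme of the anaphase complex, was 151 and 37.3 CPM in LG5, 94.7 and 0 CPM in RC726, then 413 and 0 CPM in RC724 (edgeR, log2 change 2.89, unadjusted p = 0.0044). Without the RC724 pair these 3 genes passed the threshold, with log2 changes of 1.94, 1.85 and 2.41 and adjusted p values of 0.016, 0.024 and 0.0013 (edgeR). The RC726 control of that fit held 2 UMIs of MKI67, 2 of TOP2A and 0 of UBE2C. With all 3 pairs none of them passed, so these calls are a description.

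Of the S-phase genes given here, all but TYMS were higher over the graft in each experiment. RRM2 was 71.3 and 18.6 CPM, 99.2 and 51.2 CPM, and 219 and 0 CPM (edgeR, unadjusted p = 0.019), and TK1 was 70.8 and 14.5 CPM, 72.1 and 39.8 CPM, and 149 and 0 CPM (edgeR, unadjusted p = 0.018). PCLAF was 202 and 82.8 CPM, 203 and 119 CPM, and 351 and 179 CPM (edgeR, unadjusted p = 0.063), and PCNA was 157 and 95.2 CPM, 171 and 119 CPM, and 202 and 35.8 CPM (edgeR, unadjusted p = 0.14). MCM2 was 22.7 and 4.14 CPM, 22.5 and 5.68 CPM, and 13.2 and 0 CPM, from 42, 5 and 3 UMIs over the graft and 2, 1 and 0 in the controls, and was not tested. TYMS was 86.4 and 37.3 CPM, 113 and 148 CPM, and 149 and 107 CPM, so RC726 went against the other experiments (edgeR, unadjusted p = 0.5).

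CDK1 in microglia or macrophages was 30.3 and 6.21 CPM, 27.1 and 0 CPM, and 127 and 35.8 CPM, higher over the graft in each pair. Without the barcode richest in the set in each library, it gave 56, 1 and 15 UMIs over the graft and 2, 0 and 0 in the controls. Its direction here thus rests on few UMIs, and the difference from rods, where it fell, was not tested. HMGB2 was 412 and 315 CPM, 266 and 193 CPM, and 759 and 215 CPM (edgeR, unadjusted p = 0.18). Of the other lists, 18 mitosis factors were tested in this class and 8 had an unadjusted p under 0.05 (edgeR), with a median log2 change of 1.12 against 0.05 over all genes tested. The same filter chose these genes, so the count and the median are a description.

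**Figure D3:**
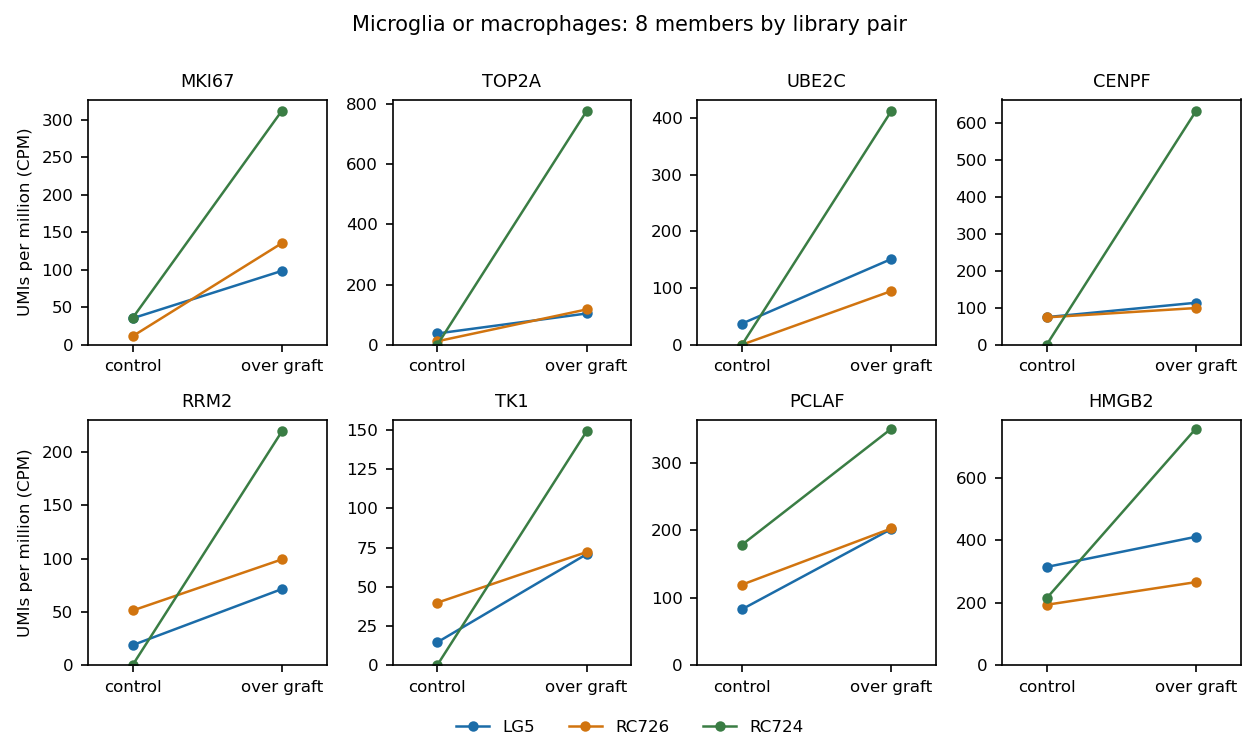
CPM in microglia or macrophages (y axis, linear from 0) in the control punch and the punch over the graft (x axis) of each experiment, joined by a line, for 8 of the 33 genes. All 8 genes go up in each experiment; the RC724 control point rests on 10 barcodes, and a 0 there allows up to 107 CPM.

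A few barcodes held much of this signal. In LG5, 108 of 683 microglia or macrophage barcodes over the graft (15.8%, exact 95% interval 13.2% to 18.8%) and 8 of 223 in the control (3.59%, 1.56% to 6.95%) had 2 or more UMIs of the scarce group. In RC726 it was 8 of 35 (22.9%, 10.4% to 40.1%) and 4 of 20 (20%, 5.73% to 43.7%), and in RC724 5 of 21 (23.8%, 8.22% to 47.2%) and 1 of 10 (10%, 0.253% to 44.5%). The intervals, which cover counting error only, are apart in LG5 and overlap in RC726 and RC724. Thinned to 1000 UMIs, the shares were 8.35% of 599 and 2.27% of 176 barcodes in LG5, 13.8% of 29 and 5.88% of 17 in RC726, then 3 of 13 and 0 of 3 in RC724.

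The microglia or macrophage barcodes with 2 or more UMIs of the scarce group were deeper than the rest of their class in each library. Of the 108 in LG5 over the graft, 104 had C1QA, 78 had PTPRC (CD45), 57 had MKI67 and 54 had TOP2A. Of the same 108, 0 had the endothelial genes CDH5 or PECAM1 and 2 had RLBP1 of Müller glia. C1QA, CDH5, PECAM1 and RLBP1 are markers of the gate, so their counts follow in part from it, while PTPRC is not such a marker. PTPRC was found in 3 of 8 such barcodes over the graft in RC726 and 3 of 5 in RC724. In the RC726 control 1 of 4 had CDH5 and 1 had RLBP1. The median depth of the 108 was 4203 UMIs against 2336 UMIs in the other barcodes of that class and library. In RC724, 1 barcode held 213 of the 513 scarce UMIs of the class over the graft. Without the barcode richest in the set in each library, TOP2A was 98.1 and 20.9 CPM, 97.7 and 8.68 CPM, and 558 and 0 CPM, and MKI67 was 93.3 and 20.9 CPM, 76 and 17.4 CPM, and 257 and 114 CPM. The RC724 control then held 9 barcodes, where 3 UMIs stand for 342 CPM, and its MKI67 value was 1 UMI.

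The summed level of the 33 genes in the class was 2739 and 1302 CPM in LG5, 2647 and 1558 CPM in RC726, then 6927 and 1287 CPM in RC724, a mean log2 ratio of 1.42 ± 0.88 (SD, n = 3 experiments). Without the richest barcode of each library it was 2693 and 1119 CPM, 1705 and 928 CPM, and 5326 and 1480 CPM. The share of barcodes with 2 or more UMIs of all 33 genes did not move in 1 direction, at 64.6% and 34.5%, 54.3% and 65%, and 71.4% and 50%. RC726 thus had a smaller share over the graft, with median depths of 1860 and 2878 UMIs, and a higher summed level.

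**Figure D4:**
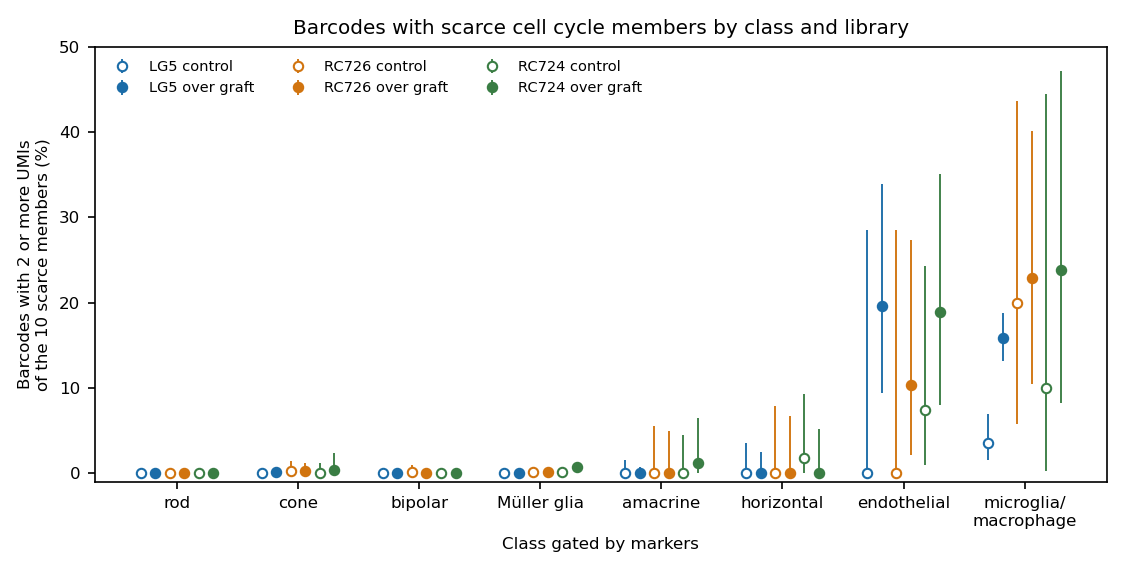
Share of barcodes with 2 or more UMIs of the 10 scarce genes (y axis, percent) in 8 classes (x axis) for each library, with exact 95% binomial intervals that cover counting error only; open points are control punches and filled points punches over the graft. Rods, cones, bipolar cells and Müller glia, whose low control levels chose the 10 genes, lie below 1% in all 6 libraries. Microglia or macrophages lie between 3.59% and 23.8%.

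Endothelial cells held 77, 63 and 111 UMIs of the scarce genes over the graft, and 0, 1 and 10 in the controls, which had fewer barcodes and UMIs. Of the 33 genes 20 were higher over the graft in all 3 experiments and 1, NUSAP1, was lower; 11.1% of the 20878 genes with a UMI in the class were higher in all 3. In 14 of the 33 genes every graft punch lay above every control, against 4.52% of those 20878 genes. The class held 295937, 1253822 and 1506103 UMIs over the graft and 71047, 144314 and 740700 in the controls. A scarce gene can therefore read 0 in a control through depth alone, so the counts of genes and their direction in this class are a description. No gene was called in the class (0% of 6955); 8 genes of the set were tested, edgeR gave 3 at an unadjusted p under 0.05 (7.71% of all genes tested) and DESeq2 called 0. The class held 46 and 11 barcodes in LG5, 29 and 11 in RC726, then 37 and 27 in RC724, and its median depths over the graft and in the control were 5358.5 and 4503, 25143 and 11317, and 27547 and 13183 UMIs.

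PCLAF was 64.2 and 0 CPM, 24.7 and 0 CPM, and 32.5 and 4.05 CPM in endothelial cells from 19, 31 and 49 UMIs over the graft and 0, 0 and 3 in the controls (edgeR, unadjusted p = 0.00051, adjusted p = 0.19). TYMS was 84.5 and 28.2 CPM, 28.7 and 13.9 CPM, and 44.5 and 20.3 CPM (edgeR, unadjusted p = 0.014), and PCNA was 132 and 84.5 CPM, 79 and 62.4 CPM, and 85.7 and 36.5 CPM (edgeR, unadjusted p = 0.025). RRM2 gave 19, 14 and 28 UMIs over the graft and 0, 0 and 1 in the controls, and TK1 gave 6, 22 and 20 against 0, 0 and 0. MKI67 was 27 and 0 CPM, 12.8 and 0 CPM, and 11.3 and 1.35 CPM, and TOP2A was 37.2 and 0 CPM, 7.98 and 0 CPM, and 13.9 and 2.7 CPM. MCM2 gave 3, 3 and 8 UMIs and CDK1 4, 6 and 5 UMIs over the graft, and neither had a UMI in any control. The controls are shallow, since 3 UMIs stand for 42.2 CPM in LG5, 20.8 CPM in RC726, then 4.05 CPM in RC724.

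HMGB2 in endothelial cells was 274 and 169 CPM, 118 and 180 CPM, and 119 and 74.3 CPM, with RC726 against the other experiments (edgeR, unadjusted p = 0.4). Of the endothelial barcodes over the graft, 9 of 46, 3 of 29 and 7 of 37 had 2 or more UMIs of the scarce group (19.6%, 10.3% and 18.9%), against 0 of 11, 0 of 11 and 2 of 27 in the controls. The exact 95% interval of 0 of 11 reaches 28.5%, above each of these graft shares. Over the graft these barcodes had median depths of 9987, 145450 and 49154 UMIs, against 4563, 24399 and 27141.5 UMIs in the other endothelial barcodes. In RC726, 1 barcode held 31 of the 63 scarce UMIs of the class. Without the barcode richest in the set in each library, the scarce group was 209 and 0 CPM, 31.7 and 8.74 CPM, and 57.6 and 16.8 CPM. PECAM1, CDH5 and C1QA are markers of the gate, so the counts that follow depend in part on it. In RC726 and RC724 those 3 and 7 barcodes carried PECAM1 in 3 and 6 cases, CDH5 in 3 and 6, and C1QA in none. In LG5 9 of 9 carried PECAM1, 1 carried CDH5 and 3 carried C1QA, a microglial gene. After thinning to 1000 UMIs only 1, 0 and 1 of them remained over the graft and none in the controls, so the share of endothelial barcodes could not be compared at equal depth.

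T or NK cells numbered 83 barcodes over the graft of LG5 and at most 6 in each of the other 5 libraries, and no test was made. In LG5 over the graft, 9 of the 83 had 2 or more UMIs of the scarce group (10.8%), all 9 had PTPRC, and 3 had MKI67. These 9 had a median depth of 4233 UMIs against 1124 UMIs in the others. Thinned to 1000 UMIs, 1 of 52 barcodes reached that count (1.92%). The summed level of the set was 2603 CPM in LG5 over the graft, and the 3 T or NK barcodes of the LG5 control held none of its UMIs.

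In the whole punch, which sums all barcodes of a library whatever their class, TOP2A, RRM2 and PCLAF rose and CDK1 fell. Of 32 genes of the set tested 4 were called, against 2.91% of the 21327 genes tested. TOP2A was 5.87 and 0.705 CPM in LG5, 0.957 and 0.276 CPM in RC726, then 3.53 and 0.188 CPM in RC724, without overlap (3.05% of genes tested), a log2 change of 3.1 ± 0.43 (SE; edgeR, adjusted p = 0.029). RRM2 was 4.22 and 0.352 CPM, 0.774 and 0.248 CPM, and 1.73 and 0.522 CPM, a log2 change of 2.33 ± 0.43 (SE; edgeR, adjusted p = 0.045). In a whole punch, more cells of a type and more RNA per cell cannot be told apart.

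PCLAF in the whole punch was 141 and 65.3 CPM, 76 and 54.2 CPM, and 48 and 28.2 CPM, a log2 change of 0.79 ± 0.13 (SE; edgeR, adjusted p = 0.039). CDK1 was 5.19 and 12.9 CPM, 6.13 and 14.4 CPM, and 2.78 and 6.04 CPM and fell by 1.22 ± 0.14 (SE) on the log2 scale (edgeR, adjusted p = 0.021). Without the LG5 pair the calls of TOP2A, RRM2 and PCLAF were lost (edgeR, adjusted p = 0.054, 0.06 and 0.055) and that of CDK1 was not. MKI67 was 5.14 and 0.545 CPM, 2.48 and 1.18 CPM, and 2.85 and 1.99 CPM, a log2 change of 1.48 ± 0.49 (SE; edgeR, adjusted p = 0.14). TYMS, PCNA, MCM2 and HMGB2 were higher over the graft in each pair, with log2 changes of 0.42, 0.33, 0.48 and 0.31 and adjusted p values of 0.11, 0.15, 0.21 and 0.17 (edgeR).

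Classes with few barcodes held a large part of the scarce UMIs of the punches over the graft. Low control levels in rods, cones, bipolar cells and Müller glia chose the scarce genes, so part of this follows from that choice. Microglia or macrophages were 3.04% of barcodes over the graft and 1.32% in the control of LG5, 0.328% and 0.214% in RC726, then 0.24% and 0.124% in RC724. They held 73.4% and 61.6% of the scarce UMIs in LG5, 31.4% and 22.9% in RC726, then 59.2% and 1.3% in RC724. Endothelial cells held a further 6.2% and 0%, 16.9% and 0.521%, and 12.8% and 4.35%. Rods, the most numerous class, held 5.16% and 9.15%, 26% and 34.4%, and 10.6% and 23.5%. In the RC726 control rods held the largest part of any class, and in the RC724 control Müller glia did, with 27.8%.

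The whole punch was therefore summed again without the microglia or macrophage, T or NK and endothelial barcodes. RRM2 was then 0.308 and 0.0652 CPM, 0.042 and 0 CPM, and 0.378 and 0.51 CPM (edgeR, log2 change 0.44 ± 0.63 SE, adjusted p = 0.73). TOP2A then gave 29, 11 and 4 UMIs over the graft and 4, 8 and 7 in the controls and no longer passed the filter on low counts. PCLAF and CDK1 stayed called, with log2 changes of 0.78 ± 0.13 (SE) and -1.47 ± 0.16 (SE; edgeR, adjusted p = 0.026 and 0.014). The scarce group summed to 5.39 and 2.05 CPM, 4.05 and 4.09 CPM, and 4.38 and 4.61 CPM without those classes, against 30.1 and 5.25 CPM, 7.59 and 5.29 CPM, and 15.1 and 4.81 CPM with them. RRM2 and TOP2A belong to this group. Its genes were chosen for low control levels in rods, cones, bipolar cells and Müller glia, so part of these drops follows from that choice.

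**Figure D5:**
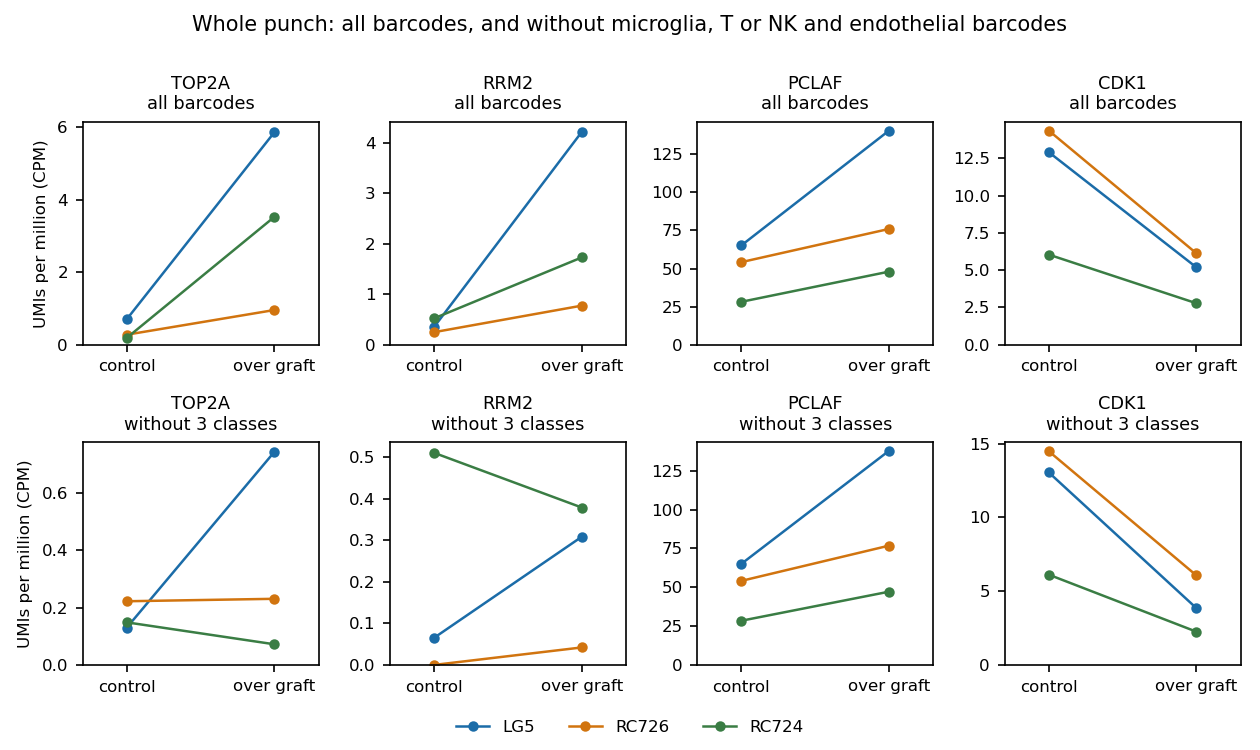
CPM in the whole punch (y axes, linear from 0, a separate scale per panel) in the control punch and the punch over the graft (x axis) of each experiment, for TOP2A, RRM2, PCLAF and CDK1, with all barcodes (top) and without microglia or macrophage, T or NK and endothelial barcodes (bottom). In the bottom panels PCLAF still goes up and CDK1 down in all 3 experiments, while TOP2A ends at 0.744 CPM or less and RRM2 at 0.51 CPM or less.

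Of the other lists, NES was 18.3 and 8.2 CPM, 10.3 and 2.54 CPM, and 22 and 7.84 CPM in the whole punch, a log2 change of 1.54 (edgeR, adjusted p = 0.025). SMC4 and CCNE1 rose by 0.99 and 1.11 on the log2 scale (edgeR, adjusted p = 0.039 and 0.047), and ORC1 and CDK7 fell by 1.38 and 0.61 (edgeR, adjusted p = 0.028 and 0.037). SMC4 missed the threshold without the LG5 pair (edgeR, adjusted p = 0.051). CDK7 missed it without LG5 or RC726 (edgeR, adjusted p = 0.056 and 0.098), and CCNE1 without any 1 of the 3 pairs (edgeR, adjusted p = 0.084 without LG5, 0.067 without RC726 and 0.095 without RC724). None of the 18 inhibitors tested in the whole punch was called by edgeR, and 10 of them had an unadjusted p under 0.05, as did 23.5% of all genes tested.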

How the data were processed

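The authors deposited UMI counts per gene and barcode, made from 10x 3′ v3.1 libraries with Cell Ranger 6.0.2 (LG5), 7.0.0 (RC726 control) and 7.1.0 (the other 3 libraries), per the file headers. Not given in the sources used here are the genome build, the annotation, the use of introns and strand, and how human and dog reads were separated. In RefSeq (UU_Cfam_GSD_1.0), 13 of the 33 genes overlap another gene, among them CCNE2, CCNA2, NUSAP1 and PCLAF, so reads of such neighbours may be mixed in. The deposited libraries hold 8778 to 23908 barcodes and 34768162 to 60755006 UMIs.

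A barcode was kept if it had 300.0 or more detected genes and no more than 20% mitochondrial UMIs. The threshold of Scrublet (in scanpy 1.11.5) marked at most 3 barcodes in a library, so the 6% of each library with the highest doublet score were removed instead. Barcodes were gated from 16 marker lists: a class needed 2 distinct markers (3 for non-neural classes), 1.5 times the library's mean level and a Poisson p under 0.01; rods needed 1.2 times, or 0.5 times where no other class scored. The limits of the gate were set after the data were seen. UMIs were summed per library and class where each library had 10 or more barcodes, and tested with edgeR 4.0.16 (R 4.3.3; filterByExpr, TMM, quasi-likelihood, Benjamini-Hochberg over all genes tested, threshold 0.05). The experiment was a block because both punches of an experiment share its label and the series' design text has them cut from 2 areas of the retina. The comparison of Müller glia with rods used a class by group term with a term per library. Summed levels and shares have no test; binomial intervals are exact. Rod RNA in another class was estimated from the rod marker share of that class over that of rods, a step added after the data were seen. Thinning drew 1000 UMIs without replacement from each barcode with at least 1000 UMIs and left out the others. DESeq2 1.42.0 was an alternative, beside other scalings, filters, gates and cell sets. The edgeR steps were tested on simulated data.

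Values are given for MKI67, TOP2A, PCLAF, PCNA, MCM2, CDK1, TYMS, RRM2, HMGB2 and each other gene of the set that was called with 1 direction in all 3 experiments, and for up to 4 genes per class from each of 6 other lists by the same rule; further genes were named after their values were seen. 1 called gene of the replication list is not reported here. The genes of the set and all lists were chosen with earlier results of these data known. Ganglion cells, mural cells, B cells and other small classes were gated but are not described.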

Additional observations from a re-analysis of the deposited data

Results flagged for a closer look

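The change over the graft differed between Müller glia and rods for 4 genes of the set by a test of the difference itself (edgeR interaction of class and group). The log2 difference, Müller glia minus rods, was -1.42 for MCM3, -0.96 for TYMS, -0.83 for MCM4 and -0.53 for HMGB2. MCM3 and TYMS passed the threshold without any of the 3 pairs, with log2 differences from -1.55 to -1.25 and from -1.05 to -0.88. MCM4 missed it when any 1 pair was left out (adjusted p = 0.058 without LG5, 0.15 without RC726 and 0.094 without RC724), and HMGB2 did not pass without RC724 (-0.35, adjusted p = 0.15).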

How the results depend on the processing

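Without a replicate block, so with the pairing of the punches left out, 0 genes of the set were called in rods, bipolar cells, Müller glia and the whole punch, where the blocked fit called 6, 1, 1 and 4; at an unadjusted p under 0.05 the fit without the block gave 5, 0, 1 and 8. Without a filter on low counts 2 genes were called in bipolar cells, 3 in microglia or macrophages, 3 in endothelial cells and 11 in the whole punch. DESeq2 called 1 in microglia or macrophages and 10 in the whole punch. With at most 10% mitochondrial UMIs 0 were called in bipolar cells. The following alternatives were chosen after seeing the data: without the richest barcode of each library 1 gene was called in microglia or macrophages (the RC724 control then held 9 barcodes, under the minimum of 10 used elsewhere), and without the 3 non-neural classes 2 in the whole punch. Leaving out 1 pair gave 5 to 8 calls in rods, 0 to 2 in bipolar cells, 1 in Müller glia, 0 to 3 in microglia or macrophages, 0 in endothelial cells, 2 to 9 in the whole punch and 2 to 4 for the difference between Müller glia and rods.

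The log2 ratio of the share of barcodes was 0.42 in rods with 2 or more UMIs, 0.2048 with 1 or more, 0.6649 with 3 or more and 0.5287 without HMGB2. In microglia or macrophages it was 0.39, and 1.1947 for the scarce group alone. In endothelial cells it was -0.08, and -0.1195 with 1 or more UMIs, 0.0979 with 3 or more, -0.0291 with 2 different genes, -0.013 without HMGB2, 0.0157 with a stricter gate and -0.0119 with at most 10% mitochondrial UMIs. In the whole punch it was 0.23, and 0.1282 with 1 or more UMIs, 0.3702 with 3 or more, 1.822 for the scarce group alone and 0.3775 thinned. The log2 ratio of the summed level was 0.38 in rods, 0.2667 without PCLAF and 0.795 for the scarce group, which also gave 0.4803 in Müller glia (-0.04 for the set) and 1.5649 in the whole punch (0.26). By experiment (LG5, RC726, RC724) the scarce sum in Müller glia was 1.51, -0.07 and 0.01, and the scarce share in the whole punch 3.59, 0.73 and 1.15, so the first rests on LG5 and the second is largest there. With 1 pair left out the shares ranged over 0.3854 to 0.4629 in rods, -0.0728 to 0.0771 in Müller glia, 0.1274 to 0.7088 in microglia or macrophages, -0.1016 to -0.0717 in endothelial cells and 0.1983 to 0.2583 in the whole punch. The summed levels ranged over 0.3233 to 0.4303, -0.1075 to 0.0113, 0.9187 to 1.7503, 0.3665 to 0.7821 and 0.1799 to 0.3372 in the same order.

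Of single genes, TYMS in microglia or macrophages changed sign without LG5 (-0.082, against 0.32; range without 1 pair -0.082 to 0.82). Of 599 values of single genes under an alternative, 479 kept direction and side of the threshold, 109 lost the call and 10 gained it; the cause was not tested. No fit was possible for microglia or macrophages with at most 10% mitochondrial UMIs or a stricter gate, nor for endothelial cells with that gate, because a library then held under 10 barcodes. The depth of the control libraries limits what can be said of microglia or macrophages and endothelial cells.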
